A study of Mus musculus with 3 samples.

Results

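The leptin receptor and 9 genes around it were followed in reporter-marked cells of the superior cervical ganglia, the topmost ganglia of the sympathetic chain. The members were the receptor gene Lepr, the related transcripts Leprot and Leprotl1, and the signalling genes Jak2, Stat3, Stat5b, Socs3, Ptpn1, Ptpn2 and Sh2b1. They were taken by gene symbol, and all 10 were found among the 52550 genes of the deposited table. The cells came from male mice aged 10 weeks of genotype LepRCRE::Ai32, in which Cre recombinase made at the leptin receptor gene switches on Ai32, a Cre-dependent reporter that carries channelrhodopsin fused to yellow fluorescent protein. Live fluorescent cells were sorted and made into Smart-Seq2 libraries, in which full-length cDNA is amplified by PCR. There was 1 group, LepR+ cells, with 3 biological replicates and no reporter-negative or treated group, so levels could be set against a fixed level and against each other only. The sources used here do not give how many cells or mice went into a library. Cre recombination is permanent, so a cell stays fluorescent after it stops making the receptor.

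Leptin is a hormone of fat cells that reports energy stores, best known for its action on hypothalamic neurons. Its receptor has no enzyme of its own: the kinase JAK2 is bound to its tail and, once leptin has docked, phosphorylates the receptor, on which STAT3 and STAT5 are then phosphorylated before they move to the nucleus. SOCS3, itself a STAT3 target, blocks the receptor and kinase, and the phosphatases encoded by Ptpn1 (PTP1B) and Ptpn2 (TC-PTP) remove the phosphates from JAK2 and STAT3, while the adaptor SH2B1 enhances JAK2 activity. Leprot and Leprotl1 encode small membrane proteins that are known to limit how much receptor reaches the cell surface.

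Values are TPM, the share of transcripts scaled to the same total in each library. They are relative to gene length and library total, so genes can be compared roughly within a library. The length is that of all annotated exons together, which lowers the value of a gene whose transcripts hold only part of them. In Stat3 the coding transcripts hold from 26.3% to 63.4% of the 9527 exonic bases, so ratios between genes are approximate. Whole reads behind the values were recovered for 49791 genes with gene lengths from GENCODE M21, within 0.02 of a read. These came to between 6778130 and 7299728 reads a library. The libraries differed widely from gene to gene: among 14062 genes whose mean reached 1 TPM, the highest library exceeded the lowest more than 10 times for 56.5%. Mitochondrially encoded genes took from 19.9% to 21.1% of TPM. Markers of the cell type in the series title were partly present, with 4 of 13 perineurial genes above 1 TPM, 1 below and 1 without a read, while 10 of 11 glial and 7 of 8 fibroblast genes lay above it. By the same test, described below, 16.1% of all genes tested lay above 1 TPM and 13.5% below. In such bulk samples fewer cells of a type and less RNA per cell cannot be told apart.

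Transcripts of the relay from receptor to STAT3 were read at 1 TPM or more in every library, and of its inhibitors Ptpn2 alone lay above that level by test. Each gene's mean log2(TPM + 1) was tested against the value at 1 TPM with limma over 27395 genes with a read, and 5 of the 10 members lay above it at an adjusted p under 0.05: Leprot, Jak2, Lepr, Leprotl1 and Ptpn2. Of all genes tested, 16.1% did so. Lepr is the gene at which Cre marks the sorted cells, so its place among the 5 is not independent of the sorting. No member lay below 1 TPM by that test, where 13.5% of all genes did. At an unadjusted p under 0.05 in limma's test 0 of 10 members were below, where 8227 of the 27395 genes were. At least 1 TPM in every library was reached by 6 members, those 5 and Stat3, against 24.5% of genes tested. The median member had a level of 4.68 on the log2(TPM + 1) scale, and the median gene tested 0.89. With 2 libraries the adjusted test had little reach: without replicate 1, or without replicate 2, limma called 0 of all genes above, members included, with 6 and 2 members at an unadjusted p under 0.05. The pair of replicates 1 and 2 gave 2434 genes above, 3 members among them.

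**Figure D1:**
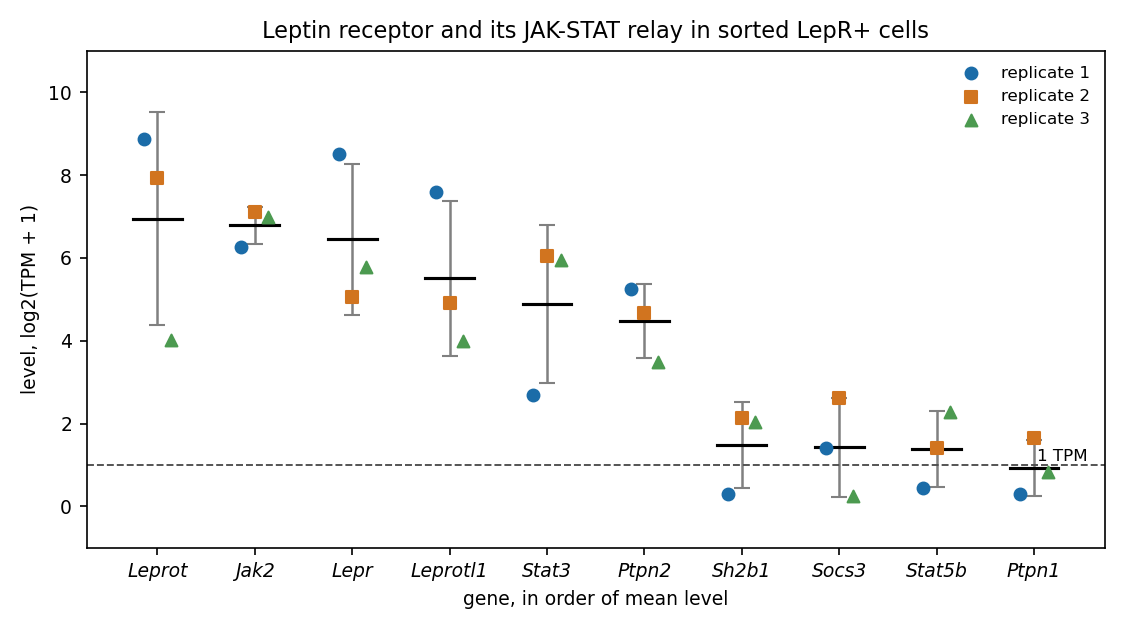
Level of each member, as log2(TPM + 1), in the 3 libraries (points), with the mean (bar) and SD over libraries (error bars), genes ordered by mean and a dashed line at 1 TPM. Leprot, Lepr and Leprotl1 are highest in replicate 1, Stat3 is lowest there, and Sh2b1, Socs3, Stat5b and Ptpn1 lie around the line.

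Lepr was read in every library, but mostly in replicate 1. It stood at 363, 32.1 and 54.0 TPM in replicates 1, 2 and 3, from 6531, 578 and 911 reads. Replicate 1 was thus 11.3 times replicate 2, and the counting intervals (exact Poisson, 95%) of the libraries, 354 to 372, 29.5 to 34.8 and 50.6 to 57.6 TPM, did not overlap. These intervals cover counting error only, since reads were PCR copies without molecular identifiers. In log2(TPM + 1) the mean exceeded the value at 1 TPM by 5.44 ± 0.85 (SE), in 3 of 3 libraries (adjusted p = 0.0462 in limma's test). The cells were sorted by a reporter that depends on Cre made at this gene, so the call is not independent of the sorting. Without replicates 1, 2 and 3 in turn the difference was 4.41, 6.14 and 5.78, with an adjusted p of 0.0821, 0.103 and 0.170 in limma's test. In the first 2 of these no gene of the table passed the threshold.

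Lepr (ENSMUSG00000057722.17) spans chr4:101717404-101815352 of GRCm38 on the forward strand, with 7049 exonic bases. The receptor is made in several forms that share the leptin-binding part, and only the long form has the tail on which STAT3 docks. GENCODE M21 lists 3 full coding transcripts, of 1162, 892 and 894 codons, the first of which is the long form. Only 905 of the exonic bases (12.8%) belong to the long form and to no other coding transcript. The deposited value is 1 number per gene, so how much of it was the long form was not measured.

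Leprot, which lies 58039 bases upstream of Lepr on the same strand, had the highest mean of the members on the log scale and the widest spread. It stood at 468, 243 and 15.2 TPM, from 2269, 1180 and 69 reads (chr4:101647718-101659364). Replicates 1 and 2 were high and replicate 3 was low, a difference of 30.7 times between the extremes. Its SD of 2.57 in log2(TPM + 1) exceeded that of 98.7% of the 799 genes within 0.5 of its mean. The mean was above 1 TPM by 5.94 ± 1.19 (SE) in 3 of 3 libraries (limma, adjusted p = 0.0488). Lepr and Leprot share no exonic base in this annotation. Their order changed between libraries: Leprot was 1.29, 7.58 and 0.282 times Lepr in replicates 1, 2 and 3. So 2 genes that neighbour each other were both highest in replicate 1 and parted in replicates 2 and 3.

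Leprotl1, the second Leprot-like gene (chr8:34135572-34147033, reverse strand), was highest in replicate 1, as Lepr was. It stood at 192, 29.2 and 15 TPM, from 1410, 215 and 103 reads, so that replicate 1 was 12.8 times replicate 3. Its mean exceeded 1 TPM by 4.50 ± 0.87 (SE; limma, adjusted p = 0.0487). Lepr stayed above it in all 3 libraries, by 0.97 ± 0.86 in log2 TPM (SD, n = 3), with an exact two-sided sign-flip p of 0.25, the smallest that 3 libraries allow. In replicate 2 the gap was 1.1 times, with counting intervals of 25.4 to 33.4 TPM for Leprotl1 and 29.5 to 34.8 TPM for Lepr, which overlap.

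The stretches before the starts of the neighbours Lepr and Leprot are shown because these genes shared their highest library. They are RefSeq promoter windows of GRCm38.p6, forward strand, from 250 bases before the RefSeq start up to the first annotated exon of GENCODE M21, at chr4:101717157-101717403 and chr4:101647533-101647717. Capitals mark the GC box GGGCGG, searched on both strands together with the TATA box TATAAA and the STAT motif TTCNNNGAA, none of which overlap here.
Lepr: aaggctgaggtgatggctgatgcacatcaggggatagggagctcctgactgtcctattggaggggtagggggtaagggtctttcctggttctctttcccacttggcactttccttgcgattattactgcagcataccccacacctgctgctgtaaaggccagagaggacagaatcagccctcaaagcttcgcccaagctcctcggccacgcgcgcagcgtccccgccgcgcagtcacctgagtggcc
Leprot: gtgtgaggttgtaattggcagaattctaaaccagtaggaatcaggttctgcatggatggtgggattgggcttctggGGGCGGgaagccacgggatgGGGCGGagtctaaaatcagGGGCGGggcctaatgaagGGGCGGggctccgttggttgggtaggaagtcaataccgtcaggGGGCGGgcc
The whole window of Leprot holds 6 GC boxes, 5 of them in the printed stretch, and that of the first RefSeq start of Lepr holds none of the 3 motifs. Of 32851 windows of 250 bases in the RefSeq table, 32.7% hold a GC box, 12.4% a TATA box and 7.02% a STAT motif. A second RefSeq start of Lepr lies in an exon of the M21 annotation and is not printed. Its window holds 1 GC box, 164 bases before that start, so the gene is not without one.

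Jak2, the receptor's kinase, was the steadiest of the 10. It stood at 75.8, 137 and 125 TPM, from 974, 1763 and 1507 reads (chr19:29251828-29313080). The lowest library was replicate 1 and the extremes differed 1.81 times, so the 3 libraries lay close together. Its SD of 0.46 in log2(TPM + 1) was larger than that of 27.0% of the 894 genes near its level, whose median SD was 0.69. It was above 1 TPM by 5.78 ± 0.26 (SE; limma, adjusted p = 0.00407), the smallest adjusted p of the members. Set against the receptor, Jak2 was 0.209 times Lepr in replicate 1, and 4.27 and 2.32 times Lepr in replicates 2 and 3.

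Stat3, the transcription factor that leptin is best known to activate, went the other way from Lepr. It had 5.47, 64.8 and 60.8 TPM, from 133, 1580 and 1387 reads (chr11:100885098-100939540). Replicates 2 and 3 nearly coincided, with overlapping counting intervals of 61.6 to 68.1 and 57.7 to 64.1 TPM, and replicate 1 was 11.8 times below the highest. The mean was 43.7 ± 33.2 TPM (SD, n = 3). In log2(TPM + 1) it exceeded the value at 1 TPM by 3.90 ± 0.88 (SE), in 3 of 3 libraries, and missed the threshold (adjusted p = 0.0546 in limma's test). Lepr was 66.2 times Stat3 in replicate 1, and 0.495 and 0.888 times Stat3 in the others. Stat3 shares 72 exonic bases (0.756%) with Stat5a on the opposite strand. The sources used here do not give whether reads were counted by strand.

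Stat5b, the second STAT of the relay (chr11:100780731-100850724), was low. It had 0.371, 1.64 and 3.87 TPM, from 5, 23 and 51 reads, with replicate 1 lowest and replicate 3 highest. It differed from 1 TPM by 0.38 ± 0.45 (SE; limma, adjusted p = 0.547). Stat3 exceeded Stat5b in every library, by 14.8, 39.5 and 15.7 times.

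The adaptor Sh2b1 (chr7:126466994-126475424) was also low, at 0.224, 3.40 and 3.11 TPM, from 2, 34 and 29 reads. Replicate 1 was again lowest and replicates 2 and 3 were alike, the shape seen for Stat3. Its difference from 1 TPM was 0.49 ± 0.50 (SE; limma, adjusted p = 0.493). Stat3 was 24.4, 19.0 and 19.6 times Sh2b1, so the log2 difference of 4.38 ± 0.20 (SD, n = 3) had the smallest SD of the 45 pairs of members. The first ratio rests on 2 reads of Sh2b1, whose counting interval runs from 0.0241 to 0.719 TPM. The pair was picked as the smallest of 45 SDs, and whether Stat3 and Sh2b1 vary together was not tested.

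Ptpn2 was the one inhibitor of the 3 that lay above 1 TPM. It stood at 36.7, 24.5 and 10.2 TPM, from 293, 196 and 76 reads (chr18:67665511-67724595), and was above 1 TPM by 3.47 ± 0.44 (SE; limma, adjusted p = 0.0283). Replicate 1 was highest and replicate 3 lowest, 3.60 times apart. Ptpn1 (chr2:167932057-167979385), which encodes the closely related phosphatase, had 0.230, 2.14 and 0.774 TPM, from 3, 30 and 10 reads. Its mean differed from 1 TPM by -0.08 ± 0.35 (SE; limma, adjusted p = 0.873). Ptpn2 exceeded Ptpn1 in every library, by 159.8, 11.5 and 13.2 times, where the first ratio rests on 3 reads of Ptpn1.

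Socs3, the feedback inhibitor, was close to the limit of reading in 1 library. It had 1.66, 5.17 and 0.181 TPM, from 12, 38 and 1 read (chr11:117966079-117970047). Replicate 2 was highest and replicate 3 held the single read, whose counting interval reaches 0.805 TPM. The mean differed from 1 TPM by 0.43 ± 0.57 (SE; limma, adjusted p = 0.591). Socs3 lay below Stat3 in all 3 libraries, and Stat3 was 3.30, 12.5 and 337 times Socs3.

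The windows before Socs3 and Stat3 are shown because Socs3 is a known STAT3 target and Stat3 was read far above it. They are from the same RefSeq table, reverse strand, at chr11:117969367-117969616 and chr11:100939541-100939790, and are printed along the gene. The Socs3 window lies upstream of the coding transcript of GENCODE M21 but within the gene's span, and overlaps an exon of a noncoding transcript there. Capitals mark GC boxes and, in Socs3, the 9-letter STAT motif.
Socs3: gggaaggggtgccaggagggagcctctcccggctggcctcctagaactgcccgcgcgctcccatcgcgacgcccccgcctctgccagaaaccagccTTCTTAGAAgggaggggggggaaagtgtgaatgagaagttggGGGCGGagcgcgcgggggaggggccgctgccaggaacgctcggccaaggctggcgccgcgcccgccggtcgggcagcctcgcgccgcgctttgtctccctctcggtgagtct
Stat3: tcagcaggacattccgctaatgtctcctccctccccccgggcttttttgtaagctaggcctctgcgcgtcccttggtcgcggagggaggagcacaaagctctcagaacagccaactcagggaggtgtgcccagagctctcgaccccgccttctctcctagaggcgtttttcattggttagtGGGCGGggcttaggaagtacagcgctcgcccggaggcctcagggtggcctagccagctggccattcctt
Socs3 alone among the 8 members with a window in the table had a STAT motif in the first of its windows, with its first base 154 bases before the RefSeq start. A match of letters is no measure of binding. Each window holds 1 GC box, 112 bases before the start in Socs3 and 69 in Stat3. In the first of their windows 6 of the 8 members have at least 1, against 32.7% of all windows.

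Seen across libraries, the members split by where replicate 1 stood. Lepr, Leprot, Leprotl1 and Ptpn2 were highest in replicate 1, and Jak2, Stat3, Stat5b, Sh2b1 and Ptpn1 were lowest in it. Lepr was 2.06 above its own mean there on the log2(TPM + 1) scale, Leprotl1 2.09 and Leprot 1.93, while Stat3 was -2.20 and Sh2b1 -1.20. Of all genes whose mean reached 1 TPM, 33.7% were highest and 33.8% lowest in replicate 1, so 4 and 5 of 10 are not far from that background. In replicate 2, 5 members were highest and 1 lowest, against 36.7% and 34.1% of genes, and in replicate 3, 1 was highest and 4 lowest, against 29.6% and 32.1%. The extremes differed over 10 times for 7 of the 10 members, against 56.5% of those genes. Jak2, Ptpn2 and Ptpn1 were the 3 with smaller gaps.

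**Figure D2:**
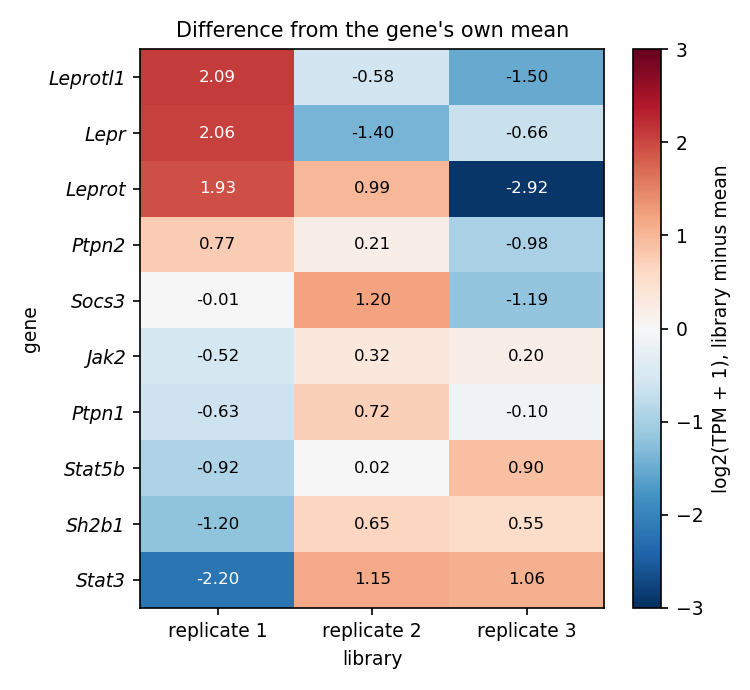
Each cell gives a member's level in 1 library minus its own mean over the 3 libraries, in log2(TPM + 1), with genes sorted by replicate 1. Red marks libraries above the mean and blue those below, from 2.09 for Leprotl1 to -2.20 for Stat3 in replicate 1, and Leprot reaches -2.92 in replicate 3.

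Spread was also set beside that of other genes at the same level, as a description. It exceeded the median of genes within 0.5 of the mean for 4 of the 10 members: Leprot, Lepr, Leprotl1 and Stat3. Lepr's SD of 1.82 was larger than that of 92.6% of 1037 such genes, Leprotl1's of 1.87 than that of 81.6% and Stat3's of 1.91 than that of 71.5%. The other 6 lay under the median of their level.

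**Figure D3:**
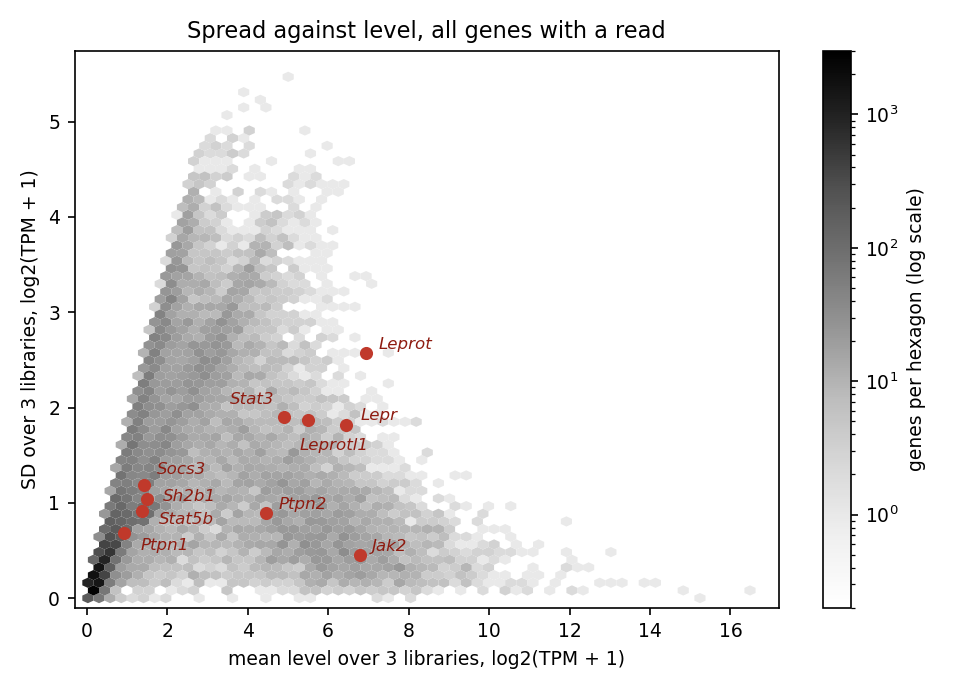
SD over the 3 libraries against mean level, both in log2(TPM + 1), for all genes with a read (grey hexagons, darker with more genes on a log scale), with the members in red. Leprot, Lepr, Leprotl1 and Stat3 lie in the upper part for their level, and Jak2, with an SD of 0.46, among the steadier genes.

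The order of the levels was loose. Ranked by mean log2(TPM + 1) it ran Leprot, Jak2, Lepr, Leprotl1, Stat3, Ptpn2, Sh2b1, Socs3, Stat5b, Ptpn1. Of the 9 neighbouring pairs, 2 kept their order in every library and had a mean difference above its SD: Lepr over Leprotl1, and Ptpn2 over Sh2b1 by 3.97 ± 2.98 in log2 TPM (SD, n = 3; exact two-sided sign-flip p = 0.25). The other neighbours did not differ beyond their spread, for example Leprot and Jak2 at 0.14 ± 2.89 and Sh2b1 and Socs3 at 0.20 ± 3.57. Over all 45 pairs, 31 kept the same order in all 3 libraries. What held was a gap between the upper 6 and the lower 4, Sh2b1, Socs3, Stat5b and Ptpn1, which had means from 1.05 to 2.34 TPM against 23.8 to 242 TPM above it.

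The genes whose libraries stood most like those of Lepr were found among 7096 genes whose mean reached 5 TPM with a recovered read in each library, by the distance between their 3 deviations from the mean. The nearest were Zfp386, which encodes a zinc finger protein, with 178, 15.2 and 27.2 TPM at a distance of 0.0493 (log2), the lincRNA 2900052N01Rik at 0.0879, Gatsl3 at 0.135, Ewsr1, which encodes an RNA-binding protein, at 0.145, and Tspan2, which encodes a tetraspanin, at 0.169. With 3 libraries many genes can share a shape: 55 of the 7096 lay within 0.5. Among the 5 members that could be compared, Leprotl1 was nearest at 1.17, where 4.93% of genes were nearer, and Stat3 farthest at 5.25, where 88.1% were.

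Markers of other cells also differed between the libraries. Summed over 8 mural genes, which mark the cells around vessels, TPM was 463, 335 and 127 in replicates 1, 2 and 3. Rgs5 and Acta2 made up most of the sum in replicate 1, at 225 and 158 TPM. Limma called 4 of the 8 above 1 TPM, against 16.1% of all genes tested, and Kcnj8 had 0, 0 and 2 reads. Of the 7 whose mean reached 1 TPM, 4 were highest in replicate 1, 2 in replicate 2 and 1 in replicate 3. Among all such genes 33.7% were highest in replicate 1. Over 9 macrophage genes the sum was 2.48, 172 and 102 TPM, lowest in replicate 1. Limma called 0 of them above 1 TPM (0 at an unadjusted p under 0.05) and 1 below, and 2, 2 and 3 of the 9 had no read. The defining macrophage gene Csf1r had 0.260, 0.420 and 0.620 TPM. The macrophage sum rested largely on Fcer1g and Cd68 in replicate 2, at 86.8 and 61.0 TPM, and on Tyrobp in replicate 3, at 75.3 TPM. Fibroblast genes summed to 4818, 7006 and 6887 TPM and perineurial genes to 536, 799 and 579, both also lowest in replicate 1. Endothelial genes summed to 351, 401 and 299 TPM. Glial genes summed to between 28386 and 34848 TPM, highest in replicate 1 as the mural sum was. The sum of 10 neuronal genes, with Npy unread, was 123, 129 and 315 TPM, again lowest in replicate 1. What part these differences had in the levels of Lepr or Stat3 was not tested.

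**Figure D4:**
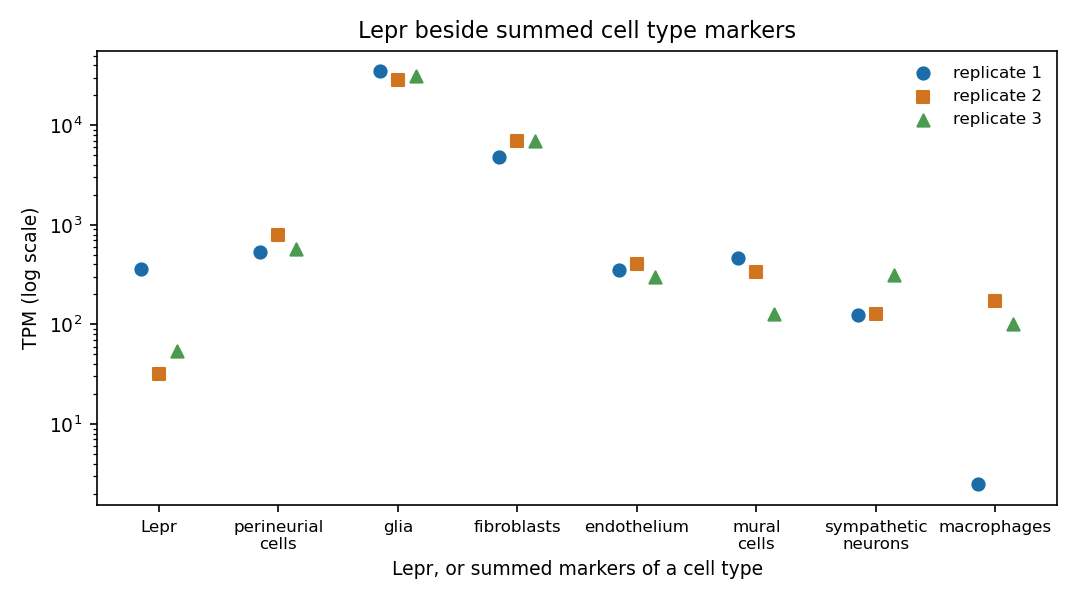
TPM of Lepr and TPM summed over the markers of 7 cell types in the 3 libraries, on a log axis. Lepr is highest in replicate 1, as the mural and glial sums are. The macrophage sum is lowest there at 2.48 TPM, and so are the fibroblast, perineurial and neuronal sums.

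Around the members, 80 other genes in 6 lists covered the rest of leptin signalling. Of the 77 with a read, limma put 29 above 1 TPM (37.7%, against 16.1% of all genes tested) and 7 below, where 13.5% of all genes were. The median level of the 77 was 3.11 on the log2(TPM + 1) scale. In limma's test 0 of them, as of all genes, were above without replicate 1 and 0 without replicate 2, with 31 and 29 at an unadjusted p under 0.05, and 12 without replicate 3. Likewise 0 of them, as of all genes, were below without replicate 1 or 2 in limma's test, with 14 and 10 at an unadjusted p under 0.05, and 5 without replicate 3. The genes of leptin itself and of the prolactin and erythropoietin receptors lay below 1 TPM, whereas Lifr and Il6st, which encode receptor chains of the interleukin 6 family, were among the highest of the 80.

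Leptin's gene Lep had 0, 2 and 0 reads and lay below 1 TPM (limma, adjusted p = 0.0492). The proteases Adam10 and Adam17, which shed receptors from the cell surface, stood at 293 ± 89.4 and 83.5 ± 29.3 TPM (SD, n = 3), both above 1 TPM. Among the other JAK and STAT genes, Jak1, the kinase that many cytokine receptors use, was above at 128 ± 39.4 TPM (SD, n = 3). Stat4, with 1, 0 and 0 reads, was below. Tyk2 had 0.299, 26.9 and 43.5 TPM and Stat2 0.809, 10.2 and 21, and neither passed the test (limma, adjusted p = 0.212 and 0.178).

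Of 14 further inhibitors, 3 were above 1 TPM and 0 below in limma's test (1 below at an unadjusted p under 0.05). Among all genes tested, 16.1% were above and 13.5% below. Socs5 had 98.0 ± 62.1 TPM, Socs4 79.2 ± 24.4 and Pias2, of a family that restrains STATs, 70.7 ± 47.4 (SD, n = 3), so these SOCS genes stood far above Socs3. Socs1 went unread, with 3 reads equal to 0.962, 0.961 and 1.03 TPM. Others were high in single libraries: Socs2, a STAT5 target, had 66.5, 1.65 and 0.625 TPM, Pias1 63.0, 151 and 5.15, and Pias3 103, 26.2 and 0.240, none past the threshold (limma, adjusted p = 0.381, 0.0659 and 0.222). Of the 11 inhibitors whose mean reached 1 TPM, 6 were highest and 2 lowest in replicate 1, against 33.7% and 33.8% of all such genes.

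Of 24 adaptors and genes of the other branches, 11 were above, 2 below and 1 unread. The shares of all genes tested were 16.1% above and 13.5% below. The highest were Pik3r1, which encodes the p85 subunit of PI3-kinase, at 253 ± 73.0 TPM, the kinase Rock1 at 206 ± 65.3, the adaptor Gab1 at 195 ± 73.3, the MAP kinase Mapk3 at 110.2 ± 58.7, Foxo1, a factor that PI3-kinase signalling keeps out of the nucleus, at 75.8 ± 31.5, and the exchange factor Sos1 at 71.1 ± 27.2 (SD, n = 3). The 2 below were Sh2b2, with 0, 0 and 2 reads, and Irs4, with 0, 1 and 0. Pik3r2 was unread, with 3 reads equal to 0.281, 0.281 and 0.30 TPM. The adaptors Grb2, Sh2b3 and Shc1 were uneven, at 44.1, 11.7 and 0.752 TPM, at 45.7, 0.427 and 0.283 TPM, and at 0, 23 and 673 reads.

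The other cytokine receptors ranged from hardly read to means above that of Lepr. Of 17, limma put 6 above 1 TPM and 3 below, against 16.1% and 13.5% of all genes tested. Lifr, the LIF receptor, had 249 ± 25.1 TPM, Ifngr1 210.4 ± 74.4, Il6st, which encodes the gp130 chain shared by the interleukin 6 family, 139 ± 22.1, Ifngr2 43.6 ± 30.9, the growth hormone receptor Ghr 13.0 ± 7.93 and Osmr 7.86 ± 5.24 (SD, n = 3). All 6 of these had a smaller SD than Lepr (149.6 ± 185 TPM, SD, n = 3), among them Lifr and Il6st, whose products also signal through JAK kinases and STAT3. Those below were the interleukin 6 receptor chain Il6ra, the prolactin receptor Prlr and the erythropoietin receptor Epor, with 3, 3 and 1, 3, 4 and 3, and 0, 0 and 1 reads. The interferon receptor chains Ifnar1 and Ifnar2 were uneven, at 74.4, 47.2 and 2.29 TPM and at 0.147, 61.6 and 56.8 TPM, and Il11ra1 had 9.65, 1.07 and 23.0.

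Of 17 genes known to be induced by STAT3 or STAT5, 6 were above and 0 below in limma's test (2 below at an unadjusted p under 0.05). The adjusted test put 16.1% of all genes above and 13.5% below. Fos had 389 ± 146 TPM, the survival genes Mcl1 and Bcl2l1 139.6 ± 101 and 53.6 ± 31.7, Cebpd 48.1 ± 24.8 and Bcl6 10.9 ± 8.25 (SD, n = 3), and Osmr was the sixth. Many signals besides leptin raise these genes. Of the 13 whose mean reached 1 TPM, 7 were lowest and 4 highest in replicate 1, against 33.8% and 33.7% of all such genes. Fos and Osmr were highest there, at 519 and 13.9 TPM, and Mcl1, Cebpd and Bcl2l1 lowest, at 56.0, 20.6 and 26.1 TPM. Bcl3 went unread, with 3 reads equal to 0.474, 0.474 and 0.506 TPM. Ccnd1 had 1.60, 18.4 and 114 TPM and Timp1 61.4 TPM in replicate 1, with 0 and 3 reads in the others, and neither passed (limma, adjusted p = 0.144 and 0.465).

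**Figure D5:**
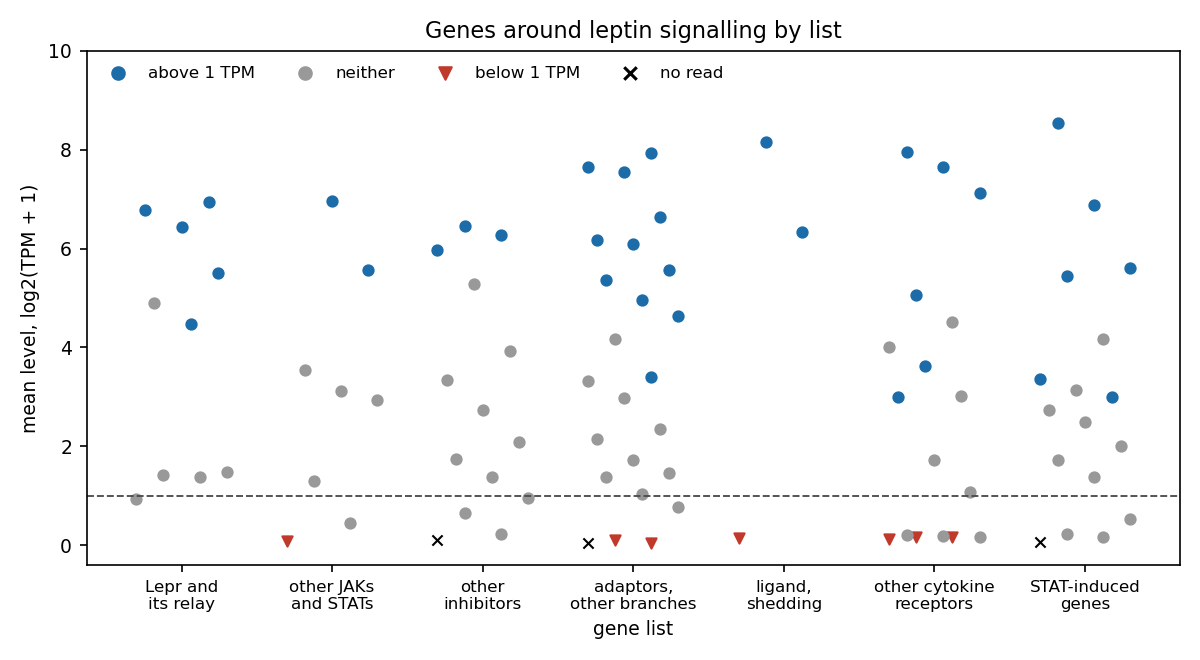
Mean level over the 3 libraries, as log2(TPM + 1), of the members and of the genes of 6 lists, coloured by limma's call against 1 TPM (dashed line), with crosses for genes without a read. Of the members 5 lie above the line by test, and of the 80 listed genes 29, against 16.1% of all genes tested.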

How the data were processed

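RNA from 3 libraries of sorted LepR+ cells was analysed. The authors deposited log2 TPM values, relative to gene length and library total. The reference was mm10 (GRCm38) and the tools STAR and featureCounts, per the submitters' processing notes. The sources used here give no further settings. In the values, 0.25 read had been added to each gene, so reads could be recovered with exon lengths of GENCODE M21 for 94.7% of genes, and a gene without a read has a value above 0 that holds only this addition. Genes with at least 1 read in at least 1 library were tested with limma 3.58.1 in R 4.3.3 (two-sided, log2(TPM + 1), Benjamini-Hochberg adjustment over 27395 genes, threshold 0.05). For 2210 of these genes reads were not recovered, and a read was inferred from values that differed between libraries beyond the addition. For low genes this scale shrinks differences. Limma's fit was also run on simulated data with normal noise, known shifts in some genes and all other genes placed at 1 TPM. That simulation lacks the many genes far below 1 TPM found here, so it does not show how the adjustment behaves with them. Differences between members used log2 TPM as deposited. The p-values reflect these 3 libraries only. Limma's p-values and SEs use a moderated spread, in which each gene's variance over the libraries is drawn toward a value common to all genes tested. The prior weighs as 1.20 degrees of freedom. An SE given here is thus not the SD over libraries divided by the root of n. For widely spread genes such as Lepr (SD 1.82, SE 0.85) it is smaller.

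The members and lists were chosen with earlier results of these data known. All members were named in every library. From each list the rule named up to 6 genes with the highest mean above 1 TPM, genes without a read, and up to 3 genes whose extremes differed over 20 times with at least 20 TPM. A gene of the lists that the rule named is not reported here. Genes below 1 TPM and single marker genes were named after their values were seen. Promoter windows are from RefSeq (GRCm38.p6), for 8 of 10 members. The rest used scipy 1.17.1, numpy 2.4.6, matplotlib 3.10.9 and pandas 2.3.3 under Python 3.11.15.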

Additional observations from a re-analysis of the deposited data

How the results depend on the processing

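The count of members above 1 TPM, 5, was 3 at a level of 0.5 TPM, 3 with TPM rescaled without mitochondrially encoded genes, 2 with genes under a mean of 0.5 TPM left out, and from 0 to 3 without 1 replicate. It was 6, with Stat3, at a pseudocount of 0.1 TPM or with a mean-variance trend in limma. Lepr missed the threshold under the filter on means (5.44, limma, adjusted p = 0.0658) and without each replicate (4.41 to 6.14), in 2 of 3 cases with no gene of the table past it. Genes of the lists above 1 TPM went from 29 to between 0 and 12 without 1 replicate. Their 7 calls below 1 TPM were 0 at 0.5 TPM, under the filter on means and without mitochondrially encoded genes (limma; 2, 0 and 12 at an unadjusted p under 0.05), 12 with the trend, 15 with no filter and 17 against 5 TPM. Of all genes, 4424 above became 0, 0 and 2434 without replicates 1, 2 and 3 (limma; 4645, 4452 and 4546 at an unadjusted p under 0.05), and 3706 below became 0 in both of the first, 15 under the filter on means and 9648 with the trend. Of 100 values of members under 10 alternatives, 69 kept direction and side, 20 lost the call, 3 gained it and 8 changed direction. Ptpn1 turned to 0.34 at 0.5 TPM and to 0.077 without mitochondrially encoded genes. Against 5 TPM the differences of Stat5b, Socs3, Sh2b1, Sh2b3, Shc1 and Timp1 were -1.21, -1.16, -1.10, -0.45, -0.23 and -0.10, by construction of a higher level. Without 1 replicate Ptpn1 ran from -0.437 (without 2) to 0.24 (without 1), Socs3 from -0.17 (2) to 1.02 (3), Stat5b from -0.072 (3) to 0.842 (1), Sh2b3 from -0.56 (1) to 2.03 (3), Shc1 from -0.30 (3) to 2.53 (1) and Timp1 from -0.26 (1) to 2.65 (2). With 1 library fewer, neighbouring pairs in 1 order in every library numbered from 3 to 4 (2 with all), and members with a spread above the median of their level from 2 to 8 (4 with all). Fewer libraries leave fewer orders to meet, and the other causes were not tested. Depth limits Socs3, Ptpn1, Sh2b1 and Stat5b, with from 1 to 51 reads a library. No paired analysis was possible because there was 1 group.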
